A study of Mus musculus with 2 samples.

Results

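Mir375 and the 3 miR-7 loci Mir7-1, Mir7-2 and Mir7b are miRNA genes known from hormone-secreting cells. They were taken by gene symbol from the annotation of the counted genes and make up 4 of the 2202 genes in the deposited tables. The libraries were made from total RNA of adrenal glands, taken from adult female mice of the strain 5xFAD/CAST at 8 to 10 months of age. In 5xFAD mice, a model of Alzheimer's disease, a neuronal promoter drives human amyloid precursor protein and presenilin transgenes, while CAST mice descend from wild castaneus animals. The labels do not say which animals carried the transgenes. There was 1 group with 2 biological replicates, whose biosamples differ but share a donor identifier, so the spread given here is that between these samples and may be technical. The series holds no other condition, and the comparisons are those between the loci, between the libraries and with the other miRNA genes.

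A miRNA is cut from a hairpin precursor into a short guide, and bases 2 to 8 of the guide, the seed, pair with target messages. miR-375 is best known from pancreatic islet cells, where it restrains insulin release, and is found in other endocrine tissues such as the pituitary. miR-7 is likewise enriched in islets, pituitary and brain, lowers alpha-synuclein and growth factor signalling components, and is bound by the circular RNA Cdr1as. The adrenal gland joins a steroid-making cortex and a medulla of chromaffin cells, which store catecholamines in secretory granules. The whole gland was sequenced, so a difference in a miRNA between samples can come from the number of cells of a type or from the amount of RNA per cell, which cannot be told apart.

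The sequences of the miR-7 loci are shown first because they set which reads can be given to which locus. All sequences are from RefSeq (GRCm38.p6, the same assembly as mm10), in which all 4 genes had an entry, and are written 5′ to 3′ with the seed in capitals. The 5p arms were as follows, of which miR-7a-5p is made from both Mir7-1 and Mir7-2.
miR-7a-5p: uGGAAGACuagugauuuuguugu
miR-7b-5p: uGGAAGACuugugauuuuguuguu
Counted from the 5′ end, miR-7b-5p differed from miR-7a-5p by the single substitution A10U over 23 compared bases, outside the seed, and was 1 base longer. Among 1679 mature miRNA names in the RefSeq table, the seed GGAAGAC was held by these 2 names and thus by the 3 miR-7 loci.

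The 3p arms differed between the loci.
miR-7a-1-3p: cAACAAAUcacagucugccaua
miR-7a-2-3p: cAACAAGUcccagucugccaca
miR-7b-3p: cAACAAGUcacagccagccuca
The 3p arm of Mir7-2 differed from that of Mir7-1 by A7G, A10C and U21C, counted from the 5′ end. The first of these lies in the seed, so that miR-7a-2-3p and miR-7b-3p shared the seed AACAAGU and miR-7a-1-3p had a seed of its own, AACAAAU, found in 1 gene.

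For Mir375 the hairpin is shown with the miR-375-5p arm in capitals. Its other product, miR-375-3p, had no entry among the mature sequences used and is named only. Marking the 5p arm does not assign the Mir375 reads to it, since the counts do not separate the arms.
Mir375 hairpin: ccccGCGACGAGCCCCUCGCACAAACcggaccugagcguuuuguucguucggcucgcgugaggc
Mir375 shared no more than 9 consecutive bases with any other counted miRNA gene and no more than 7 with a miR-7 locus. Mir7b shared at most 14 bases, with Mir7-1 and Mir7-2. Mir7-1 and Mir7-2 had a common stretch of 24 bases, which covers the whole of miR-7a-5p and 1 base after it. A read that starts at the 5′ end of miR-7a-5p matched both loci up to 24 bases and a single counted gene from 25 bases, whereas 10 bases sufficed for miR-7b-5p and for each miR-7 3p arm and 9 for miR-375-5p. This search covered exact matches within the annotated miRNA genes. Reads that matched several places, which made up 31.6% of replicate 1 and 33.6% of replicate 2, went to no gene in the tables. The values of Mir7-1 and Mir7-2 below are therefore counts of uniquely placed reads, uncertain as levels of miR-7a-5p, while those of Mir375 and Mir7b do not meet this limit within the miRNA genes.

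**Figure D1:**
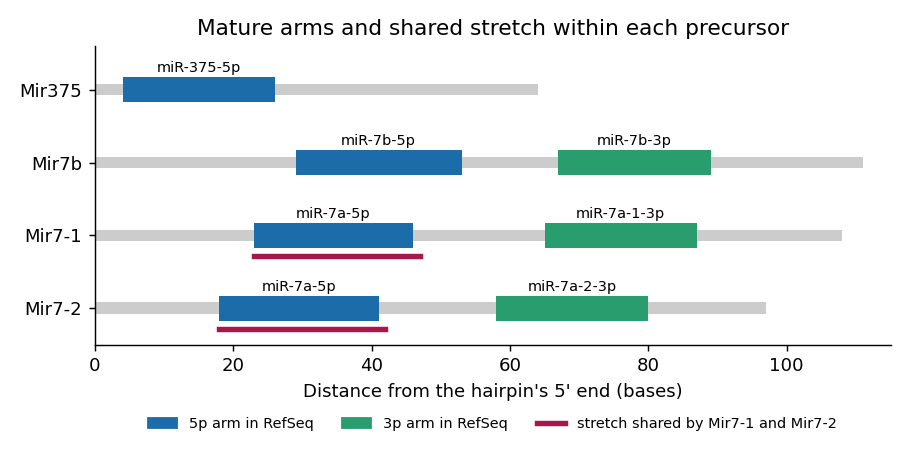
Positions of the mature arms (blue 5p, green 3p) within each precursor, in bases from the hairpin's 5′ end; the red line marks the 24-base stretch common to Mir7-1 and Mir7-2. The stretch covers the 5p arm of both loci and neither 3p arm, and Mir375 and Mir7b have no such stretch. For Mir375 only the 5p arm is drawn.

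The loci lie on 4 chromosomes. In mm10, Mir375 (ENSMUSG00000065616.3) occupies chr1:74900658-74900721 on the minus strand and is intergenic, 1350 bases from Cfap65, a gene of cilia and flagella, and 7515 bases from Cryba2, a crystallin gene. Mir7b (ENSMUSG00000065491.1) occupies chr17:56242988-56243098 on the plus strand, 183 bases from the noncoding gene AC026385.1 on the same strand, with Fem1a, 13712 bases away, as the nearest protein-coding gene. Mir7-1 (ENSMUSG00000065434.1) occupies chr13:58392779-58392886 on the minus strand in an intron of Hnrnpk, which encodes an RNA-binding protein and runs in the same direction. Mir7-2 (ENSMUSG00000065609.1) occupies chr7:78888277-78888373 on the plus strand and is intergenic, 7481 bases from Aen on the same strand. None of the 4 overlapped another annotated miRNA gene.

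The unit of the levels below is CPM, meaning a gene's reads per 1000000 reads counted on miRNA genes, from the deposited column that holds reads of 1 strand. It counted 3635851 reads on miRNA genes in replicate 1 and 6924829 in replicate 2, so that 1 read stands for 0.275 and 0.144 CPM. Intervals are exact Clopper-Pearson 95% intervals, which cover counting error only, since the reads carry no molecular identifiers and PCR copies cannot be told from separate molecules. A read spans a mature miRNA, not the precursor, so no division by gene length was made, and the counts do not separate a hairpin's 5p and 3p arms.

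Mir375 was among the miRNA genes with the most uniquely placed reads in the gland. It had 168899 reads in replicate 1 and 304661 in replicate 2, or 46454 CPM (interval 46238 to 46671) and 43996 CPM (43843 to 44149), a mean of 45225 ± 1738 CPM (SD, n = 2). It ranked 5 in replicate 1, 6 in replicate 2 and 5 by the mean over all 2202 genes, and took 4.52% ± 0.174 of the reads on miRNA genes. Of the 2202 genes, 1084 hold 20 bases found in a further miRNA gene, so that their counts can be too low. The rank and share are thus those among uniquely placed reads, and the order by total output is not given by the tables. The gene above Mir375 in mean level was Mir126a, of blood vessel endothelium, with 56684 and 41532 CPM in replicates 1 and 2. The gene below was Mirlet7i with 40016 and 44941 CPM. The ranges of both overlapped that of Mir375, so the order of these 3 genes was not set beyond the spread between libraries. The place of Mir126a depends on the column, as it had 2 and 10 reads in the both-strand column against 206095 and 287602 in the strand column, and by the both-strand mean Mir375 ranked 4.

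Mir7b had the most uniquely placed reads of the miR-7 loci. Reads of miR-7a-5p that match both Mir7-1 and Mir7-2 are not in this comparison. Mir7b had 14148 reads in replicate 1 and 27998 in replicate 2, or 3891 CPM (interval 3828 to 3956) and 4043 CPM (3996 to 4091), a mean of 3967 ± 107 CPM (SD, n = 2). It ranked 37 in each library and 38 by the mean, and its libraries differed less, relative to the mean, than those of the other 3 loci, with a coefficient of variation of 2.71% against 3.84% for Mir375, 4.41% for Mir7-1 and 48.1% for Mir7-2. In the order of mean levels it stood between Mirlet7f-2, with 3752 and 4220 CPM, and Mir674, with 1289 and 5635 CPM, and both ranges overlapped that of Mir7b.

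Mir7-1 had 922 reads in replicate 1 and 1869 in replicate 2, or 254 CPM (interval 237 to 270) and 269.9 CPM (258 to 282). Its mean was 262 ± 11.5 CPM (SD, n = 2), at rank 137. Mir7-2 had 400 reads in replicate 1 and 375 in replicate 2, the shallower library thus holding more reads, or 110.02 CPM (99.5 to 121) and 54.2 CPM (48.8 to 59.9). Its mean was 82.1 ± 39.5 CPM (SD, n = 2), at rank 190. Within each library the 4 intervals were apart, and the order Mir375, Mir7b, Mir7-1, Mir7-2 in uniquely placed reads was the same in both. Both neighbours in mean level of Mir7-1 (Mir451a and Mir542) and of Mir7-2 (Mir223 and Mir345) had ranges that overlapped those of the locus.

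**Figure D2:**
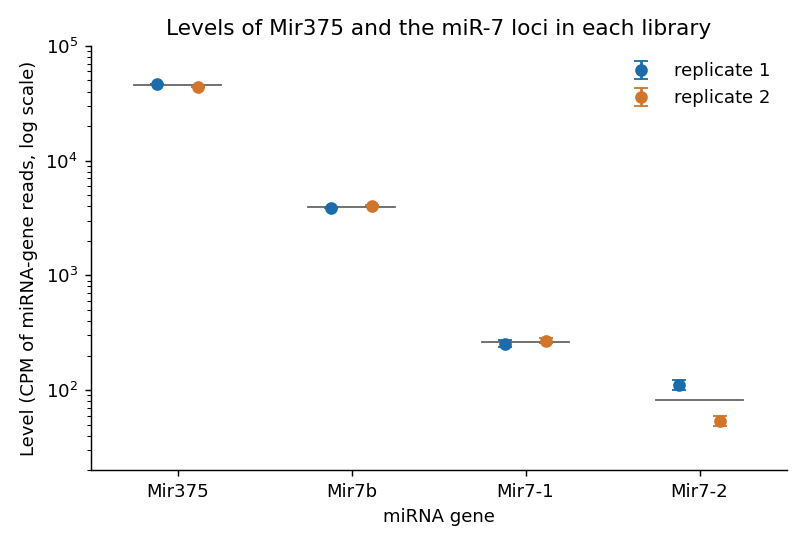
Level of each gene in CPM on a log scale, replicate 1 in blue and replicate 2 in orange, with exact 95% intervals for counting error and a line at the mean of the 2 libraries. Mir375 lies near 45225 CPM, Mir7b near 3967 and Mir7-1 near 262 with close replicates, whereas the 2 points of Mir7-2 lie apart at 110.02 and 54.2 CPM.

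The genes most like each locus were sought as those with the smallest Euclidean distance in log2 CPM over the 2 libraries, among genes with at least 10 reads in each. For Mir375 these were Mirlet7i, Mir126a and Mir139, at distances of 0.22, 0.30 and 0.38. For Mir7b they were Mirlet7f-2, Mir541 and Mir433, at 0.081, 0.25 and 0.41. For Mir7-1 they were Mir1843b, Mir30c-2 and Mir542, at 0.024, 0.047 and 0.083, and for Mir7-2 Mir1249, Mir302b and Mir1193, at 0.25, 0.26 and 0.31. With 2 libraries this measure ranks genes by level and says little of their pattern, and no miR-7 locus was among the nearest genes of another.

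Mir375 was set against each miR-7 locus within a library, where depth cancels. The ratio of Mir375 reads to Mir7b reads was 11.9 in replicate 1 (exact 95% interval 11.7 to 12.1) and 10.9 in replicate 2 (10.7 to 11.02), a log2 ratio of 3.51 ± 0.095 (SD, n = 2). The ratio to Mir7-1 was 183 (172 to 196) and 163 (156 to 171), a log2 ratio of 7.43 ± 0.12. The ratio to Mir7-2 was 422 (383 to 467) and 812 (734 to 901), a log2 ratio of 9.19 ± 0.67. Each of the 3 log2 ratios exceeded the spread between the libraries. The smallest two-sided p that an exact permutation test over 2 libraries allows is 0.5, so no test across samples was made. The ratios to Mir7-1 and Mir7-2 take in only uniquely placed reads of those loci.

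Against the sum of the miR-7 loci, Mir375 had 10.9 times the reads in replicate 1 and 10.1 times in replicate 2. The 3 loci summed to 4255 and 4367 CPM in replicates 1 and 2, a mean of 4311 ± 79.4 CPM or 0.431% ± 0.00794 of the reads (SD, n = 2). Of this sum Mir7b held 91.5% in replicate 1 (exact 95% interval 91.003 to 91.9%) and 92.6% in replicate 2 (92.3 to 92.9%). Mir7-1 held 5.96% and 6.18%, and Mir7-2 held 2.59% and 1.24%. The reads of Mir7-1 and Mir7-2 together amounted to 0.0539% of the multimapping reads of replicate 1 and 0.0434% of those of replicate 2. How many multimapping reads were miR-7a-5p is not given by the tables, so the balance of miR-7a to miR-7b was not analysed here.

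**Figure D3:**
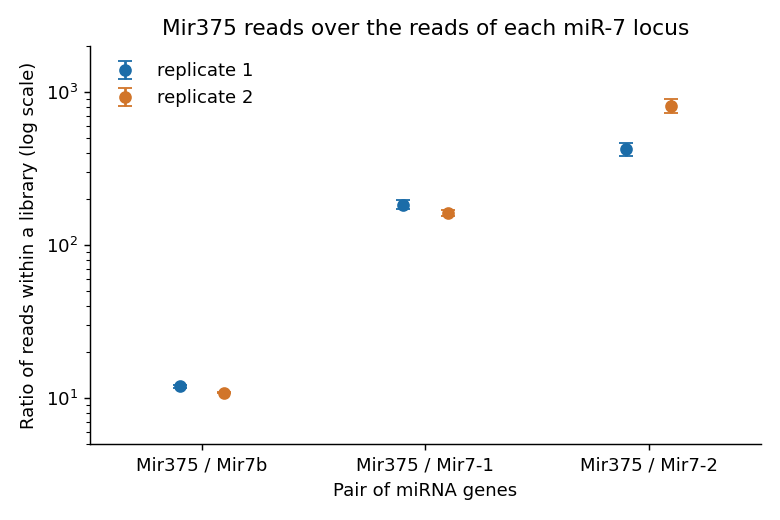
Reads of Mir375 divided by those of each miR-7 locus within a library, on a log scale, with exact 95% intervals for counting error, replicate 1 in blue and replicate 2 in orange. The ratios to Mir7b (11.9 and 10.9) and to Mir7-1 (183 and 163) lie close, those to Mir7-2 (422 and 812) do not.

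In uniquely placed reads, Mir7b and Mir7-1 kept a steady ratio and Mir7-2 did not. Mir7b had 15.3 times the reads of Mir7-1 in replicate 1 (exact 95% interval 14.4 to 16.4) and 14.98 times in replicate 2 (14.3 to 15.7), intervals that overlap. Mir7-1 had 2.31 times the reads of Mir7-2 in replicate 1 (2.05 to 2.60) and 4.98 times in replicate 2 (4.46 to 5.58), intervals that do not. The log2 ratio of Mir7-1 to Mir7-2, 1.76 ± 0.79 (SD, n = 2), was the smallest, relative to its spread, of the 6 pairs of loci. Mir7-2 made up 30.3% of the reads of Mir7-1 and Mir7-2 together in replicate 1 (27.8 to 32.8%) and 16.7% in replicate 2 (15.2 to 18.3%). Reads of miR-7a-5p that match both loci are not in these counts, so the ratios and shares are not those of total output.

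Between the libraries, 1 of the 4 loci differed by at least 1.5-fold. Over the 356 genes with at least 10 reads in each library, 127 did so, or 35.7%, with 26.7% higher and 8.99% lower in replicate 1. The count of 1 in 4 is thus near the background. The locus was Mir7-2, with 110.02 CPM in replicate 1 and 54.2 CPM in replicate 2, a ratio of 2.03 (exact 95% interval 1.76 to 2.35) and a log2 ratio of 1.02. A larger absolute log2 ratio was found in 33 of the 356 genes, and in 6 of the 113 genes with a mean of 100 to 1000 reads. With 1 library on each side there is no test of such a difference beyond counting error. The values of Mir7-2 count its uniquely placed reads only.

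The other 3 loci lay close to equal levels. The log2 ratio of replicate 1 to replicate 2 was 0.078 for Mir375, -0.055 for Mir7b and -0.090 for Mir7-1, and at least 308 of the 356 genes had a larger absolute log2 ratio than any of the 3. Most of the 356 genes have fewer reads than Mir375 and Mir7b. Among genes of like depth, a larger absolute log2 ratio was found in 10 of 15 for Mir375, with a mean of 100000 to 1000000 reads. For Mir7b it was 28 of 34 (10000 to 100000 reads) and for Mir7-1 83 of 100 (1000 to 10000 reads). The interval of the ratio took in equality for Mir7-1 (0.867 to 1.02) and not for Mir7b (0.943 to 0.982) or Mir375 (1.0496 to 1.06). These small directions depend on scaling. The median log2 ratio over the 356 genes was 0.19 with plain totals, 0.050 with TMM normalization and 0.0051 with DESeq2 size factors, and relative to the first of these medians Mir375 stood at -0.11, Mir7b at -0.25, Mir7-1 at -0.28 and Mir7-2 at 0.83. Under TMM, 67 genes stood 1.5-fold or more above replicate 2 in replicate 1 and 47 as far below it, and with DESeq2 size factors 63 and 52, against 95 and 32 with plain totals. Mir7-2 stayed past 1.5-fold under both, with log2 ratios of 0.88 and 0.83.

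**Figure D4:**
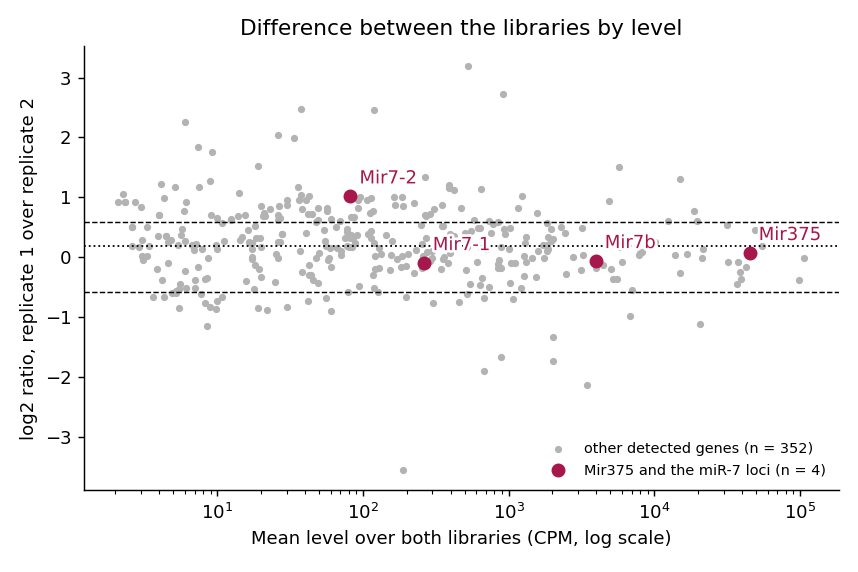
Log2 ratio of replicate 1 to replicate 2 against the mean level in CPM (log scale) for the 356 genes with at least 10 reads in each library; dashed lines mark 1.5-fold and the dotted line the median of 0.19. Mir7-2 lies above the upper dashed line at 1.02, and Mir375, Mir7b and Mir7-1 lie between the dashed lines, below the median.

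The deposited columns gave the same reads for the 4 loci. In the column that counts both strands together, which leaves out reads over overlapping genes, each locus had exactly the reads of the strand column in both libraries, and in the column of the other strand each had 0 reads. CPM moved only because the both-strand total is smaller, to 51619 ± 2589 CPM for Mir375, 4526 ± 69.4 for Mir7b, 299 ± 9.66 for Mir7-1 and 93.9 ± 46.2 for Mir7-2 (SD, n = 2).

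The other miRNAs of a list of endocrine and islet cells were all detected at lower levels than Mir375 and Mir7b. The list held 10 genes, of which the 6 beside the 4 loci summed to 3236 ± 297 CPM (SD, n = 2). Mir335, from the imprinted gene Mest, led these at 1826 ± 89.7 CPM. Mir182 and Mir183, of a sensory and endocrine cell cluster with Mir96, stood at 779 ± 212 and 512 ± 52.5 CPM, and Mir96 at 33.5 ± 28.4 CPM. Mir204 stood at 60.4 ± 18.8 CPM and Mir184 at 25.4 ± 0.616 CPM. Of the 10 genes, 3 were at least 1.5-fold higher in replicate 1 (Mir7-2, Mir96 and Mir204) and none lower, against 26.7% higher and 8.99% lower over all 356 genes, and the median log2 ratio was 0.089, against 0.19 over all 356 genes.

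**Figure D5:**
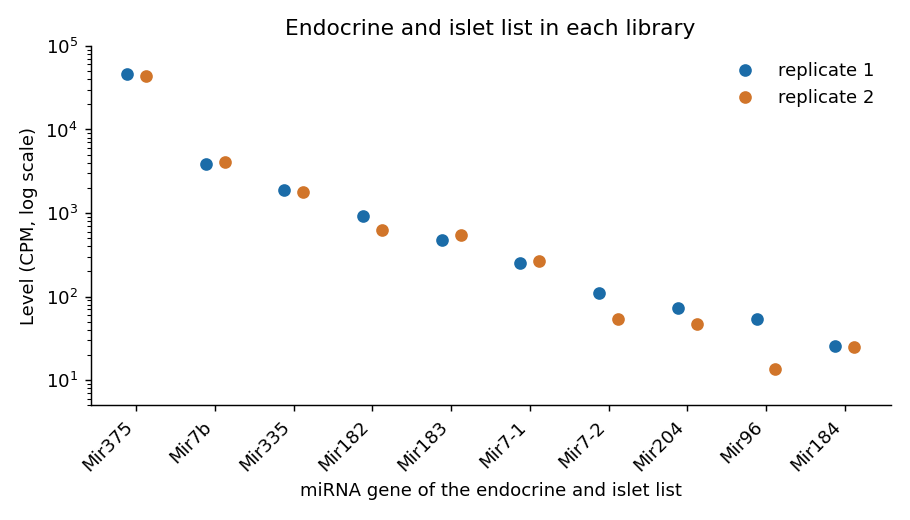
Levels in CPM (log scale) of the 10 genes of the endocrine and islet list, replicate 1 in blue and replicate 2 in orange. Mir375 and Mir7b lead in both libraries, and Mir7-1 and Mir7-2 lie between Mir183 and Mir204. The points of Mir7-1 and Mir7-2 count uniquely placed reads, without miR-7a-5p reads that match both loci.

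Markers of tissues that also hold miR-375 or lie beside the gland were counted with them. Exocrine pancreas, which surrounds the islets, was nearly without reads: Mir216a, Mir216b, Mir216c and Mir217 together had 4 reads in replicate 1 and 9 in replicate 2, Mir216c had 0 in both, and none of the 4 reached 10 reads in each library. With 3 reads taken as the upper limit of a count of 0, a simpler rule than the exact interval, this allows up to 0.825 CPM in replicate 1 and 0.433 CPM in replicate 2. Of the 7 epithelial genes, 5 were detected and the sum was 889 ± 65.2 CPM, nearly all from Mir203 at 845 ± 74.2 CPM, with Mir200c at 26.8 ± 3.36 CPM. The 4 kidney and intestine genes summed to 45.6 ± 16.4 CPM, with 2 detected, Mir192 at 22.95 ± 8.77 and Mir194-2 at 21.1 ± 7.54 CPM. Mir122 of liver stood at 93.3 ± 21.5 CPM.

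Sums of the marker lists differed between the libraries, some of them in the direction of Mir7-2. The 16 neuronal and chromaffin genes, of which 9 were detected, summed to 3624 CPM in replicate 1 and 2306 CPM in replicate 2. The largest single difference was in Mir129-2, with 1593 and 242 CPM. This gene had 0 and 1 reads in the both-strand column against 5791 and 1676 in the strand column. Without Mir129-2 the other 15 genes summed to 2031 CPM in replicate 1 and 2064 CPM in replicate 2. In the both-strand column the 16 genes summed to 2337 and 2336 CPM. These nearly equal sums hold opposite differences. Mir132, the highest of the other 15, had 1005 and 1436 CPM in replicates 1 and 2, and Mir137, the next, 640 and 470 CPM. Among single genes, 5 of the 9 detected were at least 1.5-fold higher in replicate 1 and 1 was lower, or 4 and 1 of 8 without Mir129-2, against the 26.7% and 8.99% of all 356 genes. The median log2 ratio was 0.70, or 0.57 without Mir129-2, against 0.19 over the 356 genes. Mir132, a CREB-responsive miRNA, stood at 1220 ± 304 CPM and Mir137 at 555 ± 120 CPM, while Mir9-1, Mir9-2, Mir124a-1 and Mir124a-2 were at 0 in both libraries. Of the 16 genes, 12 hold 20 bases found in a further miRNA gene, so that their counts can be too low.

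The red cell genes Mir451a and Mir144 summed to 427 CPM in replicate 1 and 175 CPM in replicate 2, and to 55.1 and 27.8 CPM in the both-strand column, where Mir451a had 0 reads. The kidney and intestine genes summed to 57.2 CPM in replicate 1 and 34.1 CPM in replicate 2. With plain totals, both detected genes were at least 1.5-fold higher in replicate 1, against 26.7% higher and 8.99% lower over all 356 genes. Their log2 ratios were 0.80 for Mir192 and 0.75 for Mir194-2, which holds 20 bases found in a further miRNA gene. Mir126a of endothelium was higher in replicate 1 by 1.36-fold. The epithelial sum was 843 CPM in replicate 1 and 935 CPM in replicate 2, and Mir122 of liver stood at 78.1 and 108 CPM. The part of any of these cell types in the value of Mir7-2 was not tested. For Mir375, Mir7b and Mir7-1 the log2 ratio between the libraries lay between -0.090 and 0.078, as given above.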

How the data were processed

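Each library has a deposited table of raw counts, made by the authors, for 2202 miRNA genes in 3 unnamed count columns. The deposited notes name the assembly mm10 and the annotation GENCODE M21. Aligner, counter and trimming: not given in the sources used here. From the values, the columns hold reads of both strands, of 1 strand and of the other strand, since the sum of the strand columns exceeds the first column by exactly 2 times its ambiguous reads. The strand column was used and the both-strand column served as a check. Entries that name no gene were left out of totals: of all reads, 16.1% and 16.5% were unmapped, 31.6% and 33.6% multimapping and 5.55% and 4.99% on no gene, in replicates 1 and 2.

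All identifiers matched GENCODE M21. Log2 ratios used an offset of 0.5 counts. Intervals are exact binomial at 95%. TMM factors came from edgeR 4.0.16 and size factors from DESeq2 1.42.0 (R 4.3.3), on genes with at least 10 reads in each library. Folding used RNAfold 2.7.2, and the rest Python 3.11.15, scipy 1.17.1 and matplotlib 3.10.9. The interval and the fold rule were tested on simulated counts that varied by counting error only, with planted changes larger than 1.5-fold. That simulation leaves out the further spread between real libraries. Genes named are the 4 loci, the 3 nearest in level to each, genes with a shared seed and up to 3 leading genes of each marker list; neighbours in rank, the other genes of the lists and the genes of observations outside the rule were named after their values were seen. The genes and lists were chosen with earlier results of these data known.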

Additional observations from a re-analysis of the deposited data

How the results depend on the processing

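The order Mir375, Mir7b, Mir7-1, Mir7-2 held under every alternative run, but these runs had little room to change it. Denominators and scaling factors act on all genes of a library alike, and the both-strand column holds the same reads for the loci. No run recovered multimapping reads, so the order is that of uniquely placed reads. Levels moved with the denominator. With the both-strand column they were 51619 CPM for Mir375, 4526 for Mir7b and 299 for Mir7-1, and per 1000000 of all reads 20759, 1819, 120.01 and 37.9 CPM for Mir375, Mir7b, Mir7-1 and Mir7-2. Per base of precursor, the log2 ratio of Mir375 was 4.31 to Mir7b and 8.19 to Mir7-1. Leaving out each replicate in turn gave 43996 to 46454 CPM for Mir375, 3891 to 4043 for Mir7b, 254 to 269.9 for Mir7-1 and 54.2 to 110.02 for Mir7-2, and log2 ratios of Mir375 of 3.44 to 3.58 to Mir7b, 7.35 to 7.52 to Mir7-1 and 8.72 to 9.66 to Mir7-2. Between the libraries, the log2 ratio under TMM and DESeq2 size factors was -0.064 and -0.11 for Mir375, -0.20 and -0.24 for Mir7b and -0.23 and -0.28 for Mir7-1, and 0.10 for Mir375 with the both-strand column. The number of genes past the fold was 38 at 2-fold, in place of 127 at 1.5-fold, 273 of 599 with at least 1 read and 1876 of 2202 with no filter, where genes at 0 in both libraries pass through the offset alone. For the neuronal and chromaffin sum, in alternatives chosen after seeing the data, the log2 ratio of replicate 1 to replicate 2 was 0.65 in the strand column, -0.023 without Mir129-2 and 0.00020 in the both-strand column. No paired analysis was possible because the series has 1 group. The depth limits Mir7-2 most, at 400 and 375 reads.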

Other observations

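The precursors differ in makeup. The Mir375 hairpin is 64 bases long with a GC content of 67.2%, against 111 bases and 46.8% for Mir7b, 108 bases and 41.7% for Mir7-1 and 97 bases and 50.5% for Mir7-2. The predicted folding energy was -26.8 kcal/mol for Mir375, -35.0 for Mir7b, -46.8 for Mir7-1 and -40.5 for Mir7-2. Such energies scale with length. Per base they were -0.42 kcal/mol for Mir375, -0.32 for Mir7b, -0.43 for Mir7-1 and -0.42 for Mir7-2.

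Among the counted genes, Mir7j and Mir7k have symbols like those of the miR-7 loci and other seeds. RefSeq names their products let-7j and let-7k, shown with bases 2 to 8 in capitals.
let-7j: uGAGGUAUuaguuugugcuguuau
let-7k: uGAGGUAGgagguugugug
Mir7j had 126 reads in replicate 1 and 286 in replicate 2, or 37.98 ± 4.70 CPM (SD, n = 2), and Mir7k had 2 reads in each library. Neither was counted as a miR-7 locus, and both were named after their values were seen.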
